A study of Homo sapiens with 21 samples.

Results

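The circRNAs described here were read in every library of NL20, a bronchial epithelial cell line, and in no library of the lung cancer lines PC-9 and NCI-H1975. They were chosen by read counts: at least 1 read in each of the 3 NL20 libraries and 0 reads over the 3 PC-9 and 3 NCI-H1975 libraries. Of the 124082 circRNAs in the table, 556 (0.448%) met this rule, which is 4.87% of the 11409 circRNAs read in all 3 NL20 libraries. The rule also sets aside hsa_circ_20528 and hsa_circ_18923, but the counts set them aside already, since NCI-H1975 held 26 and 98 reads of them. The rule left 12 libraries unused, and these did not bear out NL20 restriction for most of the 556: 358 (64.4%) had at least 1 read there and 198 (35.6%) had none. They are therefore called by the rule, as NL20 circRNAs without a read in PC-9 or NCI-H1975.

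A circular RNA forms when the spliceosome joins the end of an exon to the start of an exon upstream of it, a reaction called back-splicing. The product has no free ends, so exonucleases that degrade linear RNA do not act on it, and reads that cross the back-splice junction identify it. Levels of a circRNA depend on transcription of its host gene, on the efficiency of back-splicing and on slow turnover, and many circRNAs are read in some cell types and not in others.

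NL20 is an immortalized line of bronchial epithelium that does not form tumours, and it was the normal control of the study. PC-9 and NCI-H1975 are lung cancer lines with a mutant EGFR, the receptor kinase that gefitinib and osimertinib inhibit. The 4 groups that the rule did not use were PC-9 cells resistant to gefitinib and kept in 1 µM of it, NCI-H1975 cells resistant to osimertinib and kept in 1 µM of it, and NCI-H1975 cells transfected with pCMV6 or with FASN, both kept in 50 µg/ml G418. FASN encodes fatty acid synthase. All 7 groups grew in RPMI with serum and had 3 libraries each. Whether the resistant or transfected cells were single clones, and whether replicate libraries are separate cultures, is not given in the sources used here. Spread between libraries may therefore be technical.

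Library totals, which are sums of the circRNA reads in the table, ran from 95808 to 203079 reads. The NL20 group had the highest, 178792 reads per library on average. Depth below means this total and not the number of reads sequenced. The table pairs its identifiers with no gene name, host gene, coordinate or sequence, so none is given, and the labelled cell type could not be compared with marker genes. The numbers in the identifiers follow the table's own order. CircRNAs first met in the same column form a block of successive numbers, with blocks in the order of the columns. The pCMV6 and FASN columns come before the NL20 columns, so an identifier in the block of NL20 replicate 1, which runs from 57933 to 68277, has no pCMV6 or FASN read by construction. Of the 556 circRNAs, 291 (52.3%) lay in that block and 265 in earlier ones.

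Most of these circRNAs were rare in NL20 and a few were abundant. Together they took 1.20% ± 0.0719 of the NL20 reads (SD, n = 3), 6411 reads in all. The median circRNA had 7 reads over the 3 libraries, the middle of the range ran from 5 reads at the first quartile to 11 at the third, and the highest had 295. The median level was 13.3 CPM (reads of a circRNA for every 1e+06 circRNA reads of the library in the table). The 10 circRNAs with over 50 reads held 20.2% of the reads, and the 4 highest alone 14.1%. The coefficient of variation of the CPM over the NL20 libraries had a median of 0.377 above 20 reads and 0.494 at 20 reads or fewer.

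**Figure D1:**
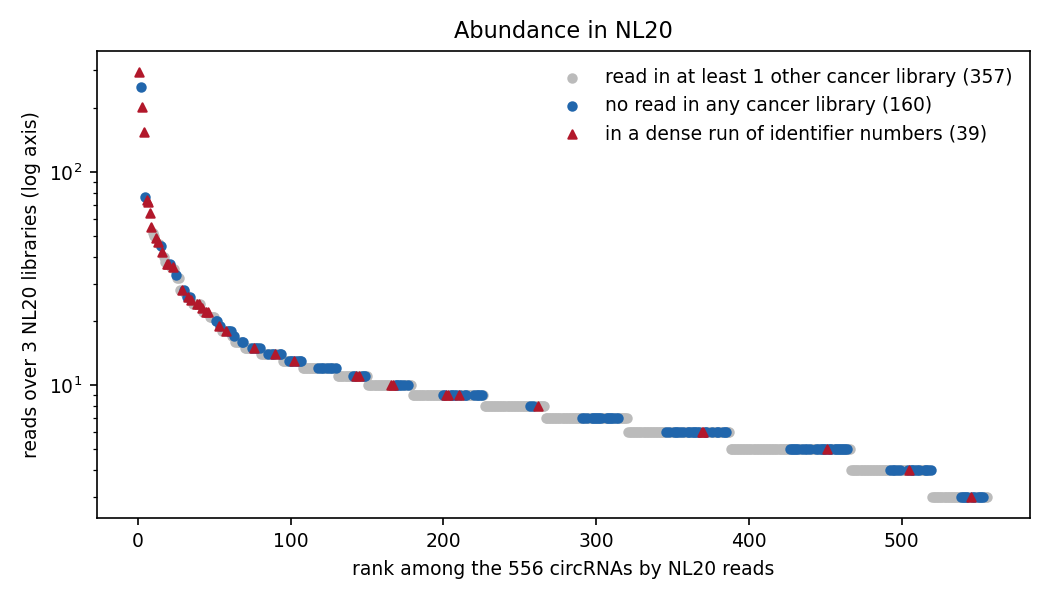
Reads over the 3 NL20 libraries (log axis) of each of the 556 circRNAs, ranked; colours show circRNAs with a read in at least 1 cancer library, with none, or in a dense run of identifier numbers (39). The curve falls from 295 reads to a long tail at 3 to 11 reads, and triangles crowd the upper left end.

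The 5 most abundant circRNAs were read at high counts in each NL20 library and were absent from all 18 cancer libraries. hsa_circ_64469 had 92, 99 and 104 reads in NL20 replicates 1, 2 and 3, a level of 557.0 ± 90.7 CPM (SD, n = 3). hsa_circ_58584 had 69, 115 and 67 reads, or 461.4 ± 92.3 CPM. hsa_circ_59503 had 38, 102 and 61 reads, or 368.5 ± 143.8 CPM. Of these, hsa_circ_59503 varied most between libraries, with its highest count in replicate 2. hsa_circ_64471 had 47, 70 and 38 reads, or 284.4 ± 53.8 CPM. hsa_circ_62143 had 23, 23 and 30 reads, or 144.8 ± 40.3 CPM. A count of 0 allows up to 3 counts, and against 3 counts over the 18 cancer libraries, which held 2288761 reads, hsa_circ_64469 was at least 419.6-fold higher in NL20, hsa_circ_58584 at least 357.0-fold and hsa_circ_62143 at least 108.1-fold. The NL20 counts and the PC-9 and NCI-H1975 zeros behind these values chose the circRNAs. The zeros in the resistant and transfected cells did not. The zeros in pCMV6 and FASN cells put all of these identifiers in the block of NL20 replicate 1, so that place is no further observation. The zeros in gefitinib- and osimertinib-resistant cells were fixed by neither the rule nor the numbering.

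The depth limits what the zeros mean for the rest. Against a floor of 3 counts over a group, the level in NL20 was above the limit in both PC-9 and NCI-H1975 for 519 of the 556 circRNAs, over 2-fold above it for 266 (47.8%) and over 10-fold for 18. The 37 circRNAs with a single read in each NL20 library lay under the limit, so that their absence from PC-9 and NCI-H1975 was not detectable as a difference at this depth. Such limits cover counting error only. Just outside the rule stood 276 circRNAs with reads in all NL20 libraries and 1 read over PC-9 and NCI-H1975, with a median of 7 NL20 reads, and 2389 with no PC-9 or NCI-H1975 read and reads in 2 of the 3 NL20 libraries, with a median of 3.

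Much of the abundant end came from a few stretches of neighbouring identifiers. Runs of at least 5 of these circRNAs, with steps of at most 5 between successive numbers, were looked for after the counts had been seen. There were 4 runs, all in the block of NL20 replicate 1, with 39 circRNAs that held 24.0% of the NL20 reads of the 556. They included 7 of the 10 most abundant circRNAs and 12 of the 20 most abundant. The median was 22 NL20 reads within runs and 7 outside. Steps of at most 3 gave 3 runs with 33 circRNAs, and steps of at most 10 gave 6 runs with 54. What neighbouring numbers share was not tested, since the identifiers carry no position.

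The first run, from hsa_circ_59489 to hsa_circ_59511, held 17 of the circRNAs among 23 numbers. In the whole block 2.81% of the identifiers belonged to the 556. A run is denser than its block by definition, so this contrast was fixed beforehand. Its circRNAs had 192, 288 and 230 reads in NL20 replicates 1, 2 and 3, or 1323 ± 200.4 CPM in sum (SD, n = 3), with single circRNAs between 9 and 201 reads. The run from hsa_circ_64461 to hsa_circ_64473 held 10 among 13 numbers, with 212, 263 and 210 reads, or 1278 ± 64.2 CPM, and single circRNAs between 8 and 295 reads. The identifiers between the members of these 2 runs, 6 and 3 circRNAs with 23 and 4 NL20 reads, also had no read in any cancer library. A smaller run, from hsa_circ_62893 to hsa_circ_62907, held 7 among 15 numbers, with 44, 36 and 27 reads. The 8 other circRNAs between its ends had 22 NL20 reads and 5 reads in cancer libraries.

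None of the 34 circRNAs in these 3 runs had a read in a cancer library, while NL20 held 1502 reads of them, 23.4% of the reads of the 556. Over the gefitinib- and osimertinib-resistant libraries, whose counts entered neither the rule nor the numbering, a floor of 3 counts put the summed level of the first run at least 325.1-fold lower than in NL20 and that of the run ending at hsa_circ_64473 at least 313.7-fold lower. The last run, from hsa_circ_64538 to hsa_circ_64551, was unlike the others, with 36 NL20 reads over 5 circRNAs, 3 reads in gefitinib-resistant PC-9 and 1 in osimertinib-resistant cells, and 2 cancer reads of the 9 other circRNAs between its ends. In the block of NL20 replicate 1, 38 of 39 circRNAs in runs (97.4%) and 160 of 252 outside runs (63.5%) had no read in the gefitinib- or osimertinib-resistant libraries.

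**Figure D2:**
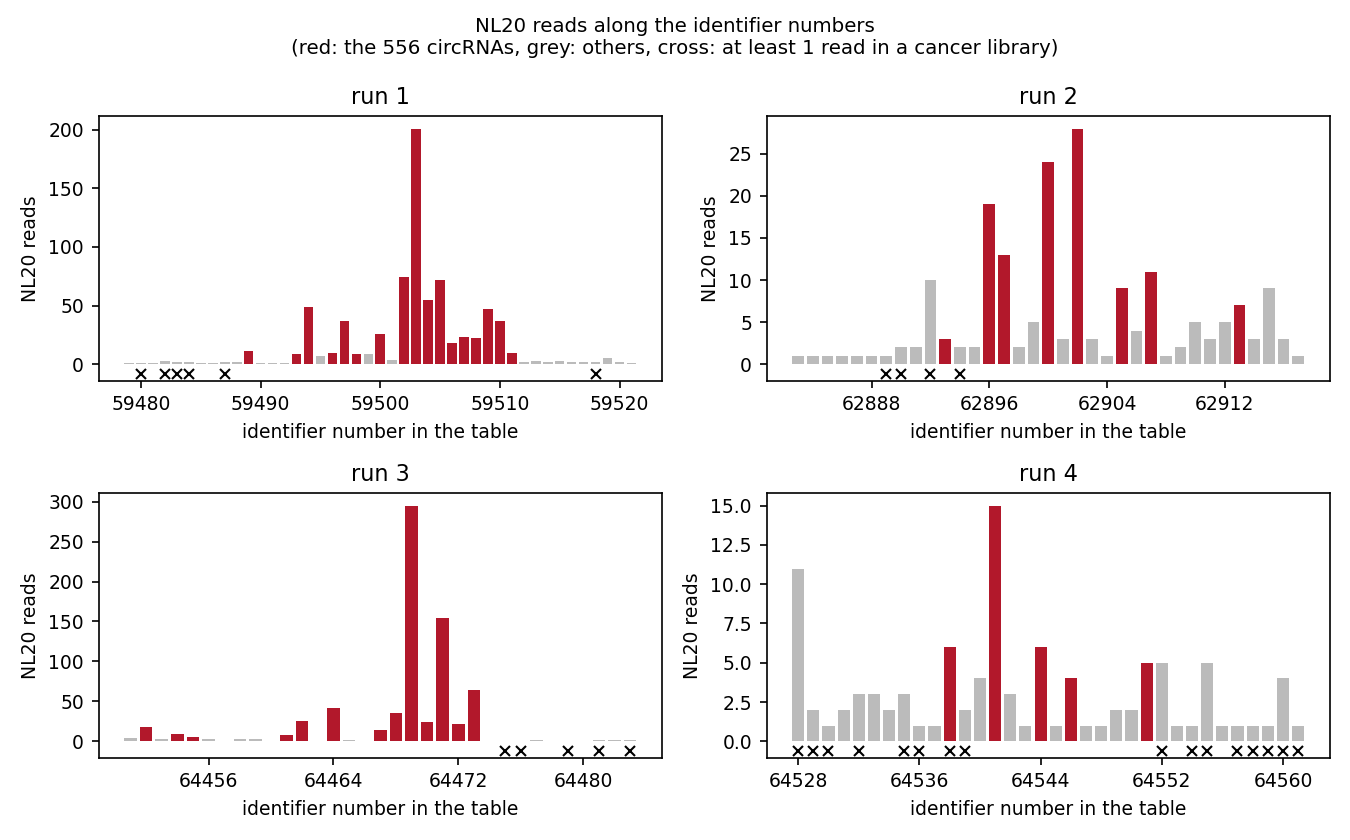
NL20 reads (summed over 3 libraries) against the identifier number in the table, for the 4 dense runs and 10 numbers to either side; red bars are among the 556 circRNAs, grey bars are other circRNAs, and crosses mark those with at least 1 read in a cancer library. Runs 1, 2 and 3 show no cross under a red bar within the run, and run 1 peaks at 201 and run 3 at 295 reads.

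In the 12 libraries that the rule did not use, the 556 circRNAs were read at low counts and to a like extent in all 4 groups. At least 1 library held a read of 179 of them (32.2%) in gefitinib-resistant PC-9, of 183 (32.9%) in osimertinib-resistant NCI-H1975, of 167 (30.0%) in pCMV6 and of 186 (33.5%) in FASN cells. Per library the shares were 16.0%, 14.9% and 13.8% in gefitinib-resistant PC-9, 18.3%, 10.4% and 15.6% in osimertinib-resistant cells, 13.1%, 12.6% and 13.1% in pCMV6 and 10.8%, 17.4% and 13.3% in FASN cells. The ranges of the 4 groups overlapped. The lowest was osimertinib-resistant replicate 2, with a 95% exact binomial interval of 8.02% to 13.3%, and without that library 28.6% of the 556 were read in osimertinib-resistant cells, beside 22.1% without replicate 1 and 24.8% without replicate 3. Without FASN replicate 2, the highest of its group, the share read in FASN cells was 20.9%, beside 27.0% and 25.7% without replicates 1 and 3. A share over fewer libraries is lower by construction.

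In sum these circRNAs stood at a level of 1313 ± 196.3 CPM (SD, n = 3) in gefitinib-resistant PC-9, 1448 ± 116.9 in osimertinib-resistant cells, 1523 ± 109.4 in pCMV6 and 1335 ± 210.4 in FASN cells, against 11981 ± 719.1 in NL20. The groups thus held 11.0%, 12.1%, 12.7% and 11.1% of the NL20 level, which the rule had chosen to be high. Reads were thinly spread. Of the 6672 pairs of circRNA and library, 943 held a read, 443 of them (47.0%) a single one and 65 at least 5, and the highest count was 12. By group, 125 circRNAs were read in 1 of the 4 groups, 133 in 2, 76 in 3 and 24 in all 4.

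The share read elsewhere was highest for circRNAs with 6 to 10 NL20 reads and lowest for the most abundant. Reads in the 12 libraries were found for 66.3% of the 169 circRNAs with 3 to 5 NL20 reads, 71.3% of the 237 with 6 to 10, 56.0% of the 100 with 11 to 20 and 50.0% of the 40 with 21 to 50. Of the 10 circRNAs above 50 NL20 reads, 1 was read, hsa_circ_35892, with 52 reads in NL20 and 2 in pCMV6 cells. Above 20 NL20 reads, 29 of 50 had no read in any cancer library. Among circRNAs with other reads the highest NL20 count was 52 and the median 7, beside a median of 8 for those without. No test was made of this order, since NL20 counts chose the circRNAs.

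**Figure D3:**
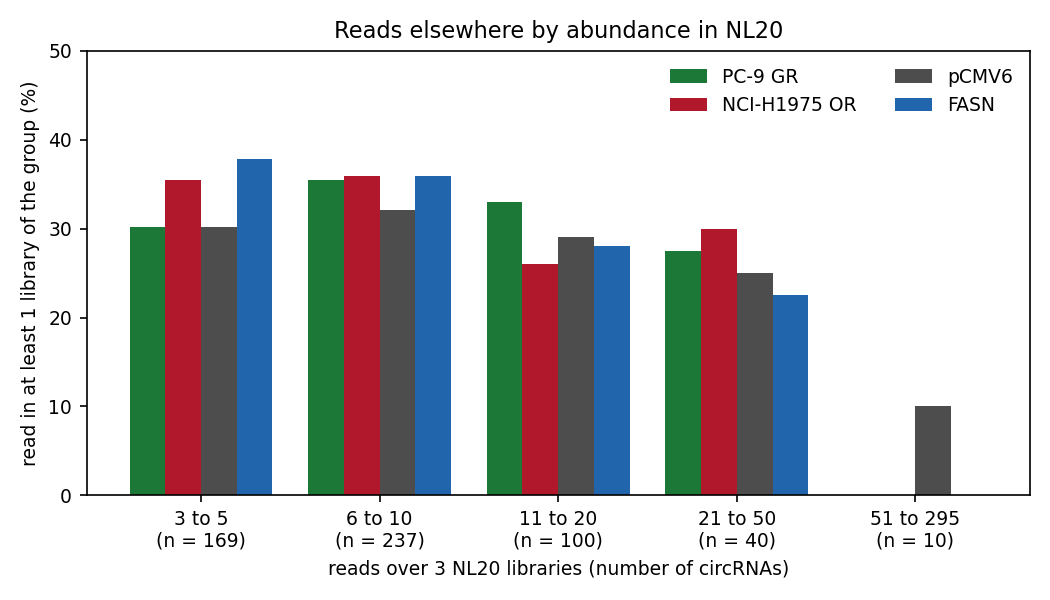
Share of the 556 circRNAs (%) with a read in at least 1 library of gefitinib-resistant PC-9 (PC-9 GR), osimertinib-resistant NCI-H1975 (NCI-H1975 OR), pCMV6 or FASN cells, by reads over the 3 NL20 libraries, with the number of circRNAs under each bin. Bars lie between 22.5% and 37.9% up to 50 NL20 reads, and above that 1 of 10 circRNAs was read, in pCMV6 cells.

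Leaving a library out of the rule gave a reading of it that the choice had not used. Without NL20 replicate 1, 2 or 3 the rule held for 1312, 1288 and 1457 circRNAs, of which 42.4%, 43.2% and 38.2% were read in the library left out. At the smallest library total, 95808 reads, the expected share was 32.8%, 32.6% and 31.0%, while in the same sets the 12 unused cancer libraries ranged from 6.89% to 13.0%. Every left-out NL20 library thus lay above every unused cancer library at equal depth. The rule itself favoured this order. Each set required reads in the other NL20 libraries and no read in PC-9 or NCI-H1975, the lines from which the unused groups came. At the full library totals, most circRNAs read in a pair of NL20 libraries and absent from PC-9 and NCI-H1975 had no read in the other NL20 library.

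The same reading was made on the cancer side. Without PC-9 replicate 1, 2 or 3 the rule held for 677, 699 and 629 circRNAs, and 17.9%, 20.5% and 11.6% of them were read in the library left out. At equal depth these shares were 15.5%, 15.3% and 11.1%, beside 15.9% to 17.2%, 14.9% to 17.8% and 14.4% to 15.5% for the gefitinib-resistant libraries in the same sets. Without NCI-H1975 replicate 1, 2 or 3, the left-out library held 20.5%, 16.0% and 19.2%, or 17.0%, 13.0% and 14.7% at equal depth. In those sets the osimertinib-resistant libraries ranged from 10.7% to 17.9%, 12.0% to 17.8% and 12.4% to 18.3%, and so spanned the left-out library each time. The pCMV6 libraries ranged from 14.4% to 15.2%, 14.3% to 15.6% and 14.3% to 16.0%, and the FASN libraries from 14.3% to 17.3%, 13.0% to 16.3% and 13.0% to 17.9%. The left-out NCI-H1975 replicate 1 lay above the pCMV6 range and replicate 2 below the pCMV6 and FASN ranges, while PC-9 replicates 1 and 3 lay below the gefitinib-resistant range. These differences were not tested.

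**Figure D4:**
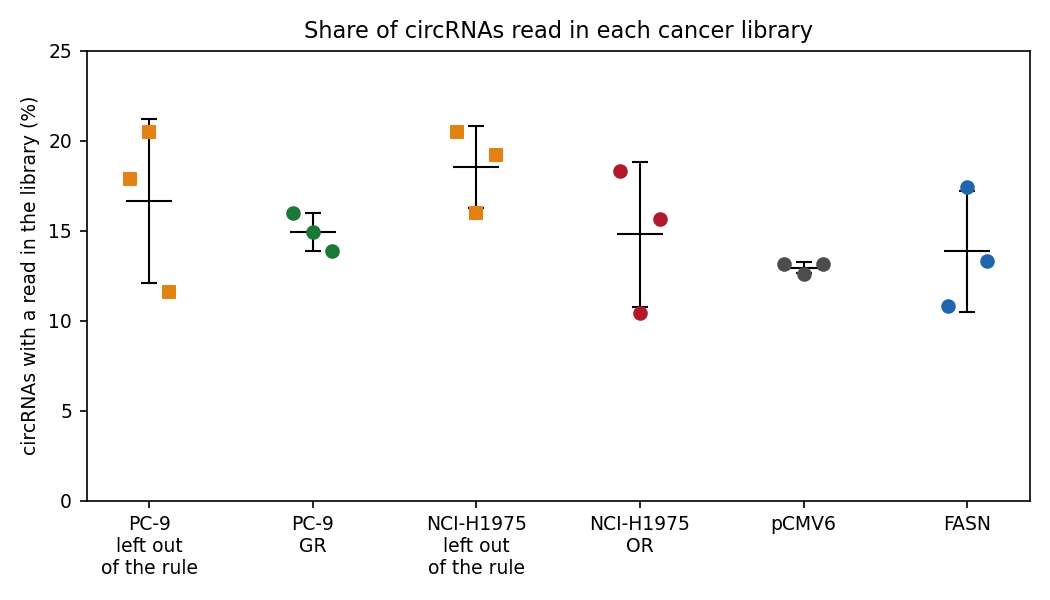
Share of circRNAs (%) with a read in each cancer library; squares are PC-9 and NCI-H1975 libraries after leaving that library out of the rule (sets of 629 to 699 circRNAs), circles are libraries the rule did not use (556 circRNAs), and bars give the mean ± SD of 3 libraries at the full library totals. Points lie between 10.4% and 20.5%, with overlapping ranges.

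Some circRNAs were read more in a resistant or transfected group than in NL20. The level in at least 1 of the 4 groups was above the NL20 level for 100 of the 556 (18.0%), which had a median of 5 and at most 12 NL20 reads. At such counts a few reads decide the order. By group these were 33 in gefitinib-resistant PC-9, 31 in osimertinib-resistant, 36 in pCMV6 and 31 in FASN cells. Reads in all 3 libraries of a group were found for 9, 10, 6 and 8 circRNAs in that order, 33 circRNAs in all. For neither count was the share over all circRNAs computed, so neither can be read as particular to the 556.

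In gefitinib-resistant PC-9, hsa_circ_44509 took the most reads, 1, 12 and 0 in replicates 1, 2 and 3, beside 5, 3 and 1 in NL20. Nearly all of its reads came from replicate 2. hsa_circ_65202 had 2, 6 and 1 reads there, 1 read in each NL20 library and none in any NCI-H1975 group. hsa_circ_50436 had 6, 1 and 1 reads there against 4, 1 and 3 in NL20, so the libraries of these groups overlapped. hsa_circ_7469 was read in both cancer lines, with 5, 3 and 1 reads in gefitinib-resistant PC-9, 0, 5 and 7 in FASN cells and 3, 2 and 1 in NL20.

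In osimertinib-resistant NCI-H1975, hsa_circ_50983 took the most reads, 1, 4 and 11 in replicates 1, 2 and 3, or 40.1 ± 34.9 CPM (SD, n = 3), beside 1, 2 and 1 reads and 7.29 ± 2.24 CPM in NL20. It had no read in pCMV6 cells and 3 in FASN cells, all from 1 library. hsa_circ_16459 had 5, 6 and 1 reads in osimertinib-resistant cells, 6, 0 and 3 in pCMV6 and 0, 3 and 3 in FASN cells, with 1, 2 and 2 in NL20, so it was spread over the NCI-H1975 groups that the rule did not use. hsa_circ_65817 had 4, 4 and 1 reads in osimertinib-resistant cells and none in any other cancer group, at 24.2 ± 15.3 CPM against 21.7 ± 8.48 in NL20. These levels overlapped.

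In pCMV6 cells, hsa_circ_13760 had 7, 2 and 3 reads in replicates 1, 2 and 3 and none in any other cancer library, or 38.4 ± 22.3 CPM (SD, n = 3) beside 19.8 ± 8.75 in NL20. hsa_circ_2050 took the most reads there, 1, 1 and 12, and its count rested on replicate 3. hsa_circ_3793 had 5, 7 and 0 reads, and hsa_circ_6547 had 4, 2 and 2. In FASN cells, hsa_circ_25728 was the most even, with 4 reads in each library, or 34.1 ± 6.01 CPM, against 14.8 ± 7.90 CPM and 1, 4 and 3 reads in NL20. hsa_circ_21942 had 3, 7 and 2 reads and hsa_circ_39189 had 3, 3 and 1. Both were also read in gefitinib-resistant and osimertinib-resistant cells.

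**Figure D5:**
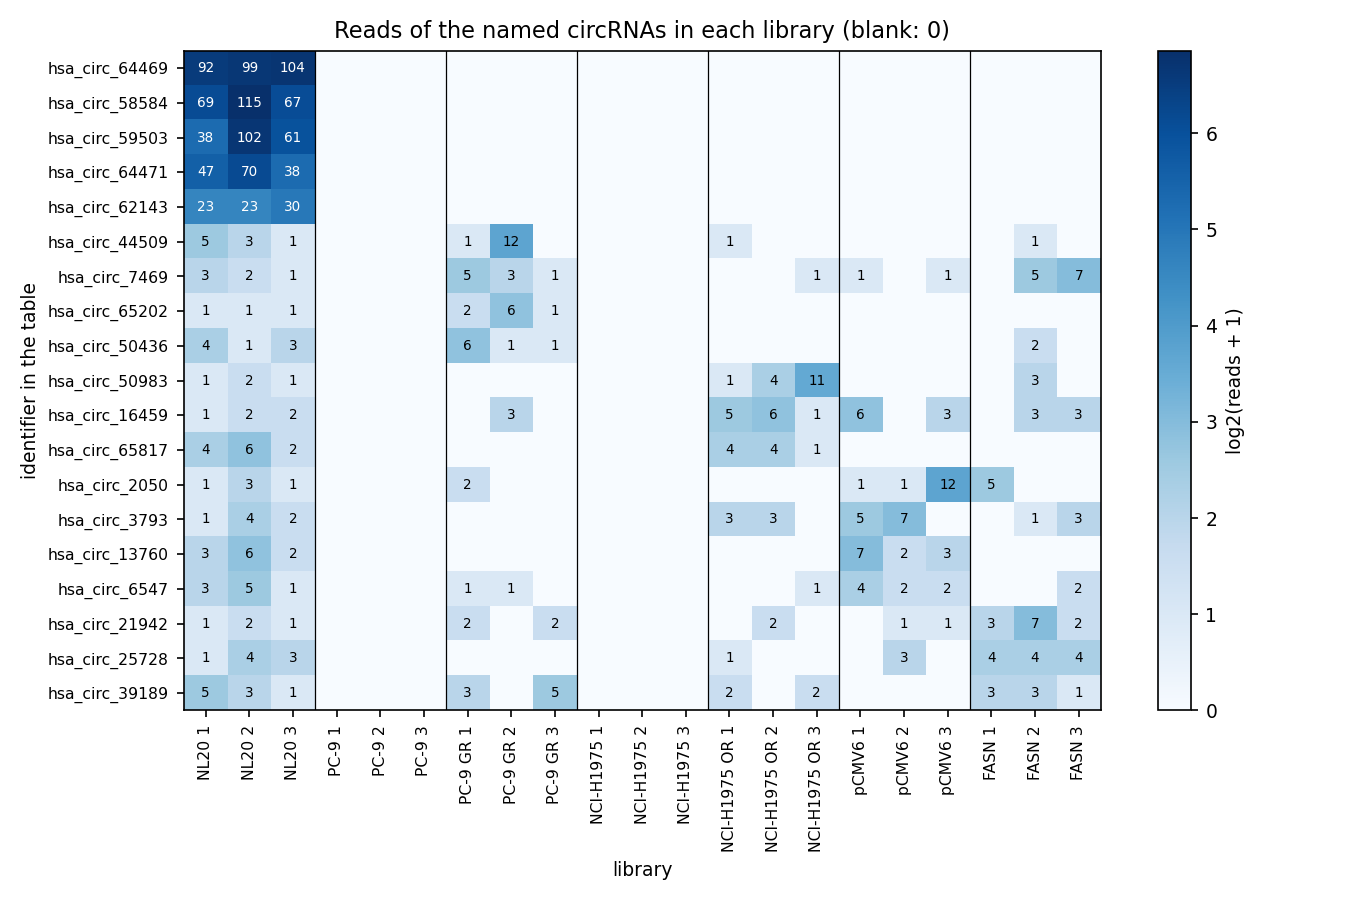
Reads of the named circRNAs (rows, identifiers of the table) in each of the 21 libraries (columns, by group and replicate), with the count printed in the cell, blank for 0, and colour by log2(reads + 1). The upper 5 rows have reads in NL20 alone, and the rows below them have counts of 1 to 12 in the resistant and transfected groups, in 1, 2 or all 3 libraries of a group.

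Differences between the 4 unused groups were tested with edgeR's quasi-likelihood test on the whole table, with Benjamini-Hochberg adjustment. Of 9175 circRNAs that passed the filter on low counts, 27 were among the 556, and 529 were too rare to be tested. The 27 passed through their NL20 reads, at least 22 each, and 18 of them had no read in the 12 libraries compared. The counts of calls among them were thus largely fixed beforehand and say nothing of stable levels. FASN minus pCMV6 called 0 of the 27, where 0.316% of all circRNAs tested were called. Osimertinib-resistant minus pCMV6 called 0, where 1.83% of all were called, and osimertinib-resistant minus FASN called 0, where 2.5% were. Gefitinib-resistant PC-9 minus the mean of the 3 NCI-H1975 groups called 0, where 22.7% were. The first 3 comparisons share groups with each other. DESeq2 also called 0 of the 27 in each.

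At an unadjusted edgeR p under 0.05, the counts among the 27 were 0, 1, 0 and 0 in that order. Of all 9175 circRNAs tested they were 729, 1363, 1296 and 3069. The limit given for the calls holds for these counts too. The 1 among the 27 was hsa_circ_48152, named after its values were seen, with 6, 0 and 5 reads in osimertinib-resistant cells and none in pCMV6 cells. Its edgeR log2 difference was 4.93 ± 2.06 (SE), with an adjusted p of 0.214. That value depends on the small count added to a group at 0. It also had 6, 1 and 0 reads in gefitinib-resistant PC-9, 0, 4 and 1 in FASN cells and 12, 9 and 3 in NL20.

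Without the filter all 556 entered the fit. Of them, 198 had no read in the 12 libraries compared and could not be called, and the others were read at low counts. In each of the 4 comparisons edgeR called 0 of the 556, which was thus largely fixed beforehand. Of all 124082 circRNAs it called 8, 58, 43 and 1090. An unadjusted edgeR p under 0.05 was found for 14 (2.52%), 15 (2.70%), 17 (3.06%) and 30 (5.40%) of the 556. The shares over all circRNAs were 1.29%, 2.06%, 1.92% and 6.96%. The smallest adjusted p was that of hsa_circ_65202, for gefitinib-resistant PC-9 against the NCI-H1975 groups (edgeR adjusted p = 0.0936). hsa_circ_13760 had an edgeR adjusted p of 1 for FASN against pCMV6, and hsa_circ_50983 an adjusted p of 1 for osimertinib-resistant against pCMV6 cells. The last comparison takes the mean of the NCI-H1975 groups on the log scale, where a group at 0 dominates. With 12 reads in pCMV6 cells and 0 in the other cancer libraries, hsa_circ_13760 had an edgeR adjusted p of 1.00 there.

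The same rule turned to each cancer line picked circRNAs that were mostly read in the other groups of their own line. Their numbers are not compared with the 556, since the NL20 libraries had higher totals of circRNA reads on average. It held for 453 circRNAs of PC-9 without a read in NL20 or NCI-H1975, and 82.6% of those were read in gefitinib-resistant PC-9. Of 348 circRNAs of NCI-H1975 without a read in NL20 or PC-9, 68.7% were read in osimertinib-resistant, 70.4% in pCMV6 and 79.6% in FASN cells. In cells of another line, PC-9 circRNAs were read at 16.6% to 18.5% in the 3 NCI-H1975 groups and NCI-H1975 circRNAs at 27.3% in gefitinib-resistant PC-9, beside 30.0% to 33.5% for the NL20 circRNAs. No further group of NL20 cells was sequenced among these 21 libraries, so within the line NL20 has the left-out libraries alone. Those shares are for a single library, on sets chosen without it. They are therefore an unlike measure and are not set against the shares over 3 libraries given here. The median own-line count was 10 reads for PC-9, 8 for NCI-H1975 and 7 for NL20 circRNAs, and these differences were not tested. Over the other 10853 circRNAs read in all NL20 libraries, with a median of 16 NL20 reads, 86.4% to 89.7% were read in each of the 4 groups.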

How the data were processed

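The authors deposited 1 table of raw read counts, whole numbers for each circRNA in each of 21 libraries. Per the submitters' processing notes, the build was hg38 and the tools HISAT2 and DESeq2, with no role or version. For the circRNA caller and its filters, nothing is stated (not given in the sources used here). Per the labels' protocols, a sequencing provider purified circular RNA from total RNA. The rule was applied to the counts as deposited. CPM used library totals, that is the sum of circRNA reads in each column. Counts were tested in R 4.3.3 with edgeR 4.0.16: filterByExpr (minimum count 5, minimum total 15), TMM factors, 1 quasi-likelihood fit over all libraries with 7 group means, called at an adjusted p under 0.05. DESeq2 1.42.0 was an alternative. The same edgeR code was tested on simulated data, with changes set in circRNAs of at least 5 reads per library on average. Over the comparisons it recovered 7% to 12% of 2-fold and 35% to 67% of 4-fold changes. The SE of a log2 difference was taken as |log2 difference| / √F. Shares at the smallest library total were computed from the expected loss of reads. Named circRNAs are the 5 with the most NL20 reads, the 2 with the most reads in each unused group, those called, and up to 3 per unused group read in all 3 libraries. Others are named with the reason. The members and lists were chosen with earlier results of these data known. Among the 4 unused groups, deviations from the group means correlated over 0.1 in 0 of 18 pairs of libraries with the same replicate number. With counts this low, the check cannot exclude that the replicate number paired libraries.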

Additional observations from a re-analysis of the deposited data

How the results depend on the processing

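The zeros and single reads behind the rule make the set depend on depth. Requiring 2 or 3 reads in each NL20 library left 196 and 99 circRNAs, with 0.780% and 0.595% of NL20 reads and median levels of 23.8 and 36.0 CPM, and the shares read fell to 27.0% and 25.3% in gefitinib-resistant PC-9, 28.6% and 23.2% in osimertinib-resistant, 27.0% and 19.2% in FASN and, at 3 reads, 23.2% in pCMV6 cells. Libraries thinned to the smallest total gave 353.7 circRNAs on average over 100 draws, 1.10% of NL20 reads and a median of 20.7 CPM. Allowing 1 read over PC-9 and NCI-H1975 gave 1.69% of NL20 reads and shares of 37.6%, 39.3%, 35.8% and 40.3% in gefitinib-resistant, osimertinib-resistant, pCMV6 and FASN cells. Without the members of the dense runs, 0.911% of NL20 reads remained, an alternative chosen after seeing the data, as was leaving out single libraries of the 4 unused groups.

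With 1 library left out of the rule, the set held 629 to 1457 circRNAs, with 1.32% to 1.82% of NL20 reads and median levels of 8.46 to 13.4 CPM. Leaving a library out can only enlarge the set, so its size and its share of NL20 reads rise by construction. Shares read were also taken over the 556 with a library of the group itself left out, which gave the lower ends below. They ran from 24.6% to 38.6% in gefitinib-resistant, 22.1% to 38.5% in osimertinib-resistant, 21.8% to 35.2% in pCMV6 and 20.9% to 39.7% in FASN cells. Over all circRNAs, calls ran from 14 to 20 for FASN minus pCMV6 (29 with all libraries), 99 to 161 for osimertinib-resistant minus pCMV6 (168), 116 to 175 for osimertinib-resistant minus FASN (229) and 1448 to 2158 for gefitinib-resistant PC-9 (2079). Without the filter there were 8, 58, 43 and 1090 calls, DESeq2 made 347 for osimertinib-resistant minus FASN, and a fit of the compared groups alone 104 for osimertinib-resistant minus pCMV6. The cause of these shifts was not tested. Calls among the 556 numbered 0 in each of these fits, 0 to 0 over the left-out libraries. That shows no stability, since with or without the filter these circRNAs had few or no reads in the groups compared. In the 12 libraries of those groups 198 of the 556 had no read. With the replicate number as a block there were 24, 158, 209 and 1937 calls, and 0 among the 556. A fit of the compared groups alone tested none of the 556.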
